A study of Sus scrofa with 8 samples.

Results

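The genes described here encode the proteasome, the protease that breaks down proteins tagged with ubiquitin, together with its activators, its inhibitor and the chaperones that build it. A gene was included when a probe set of the array carried its symbol alone and that symbol was PSMA, PSMB, PSMC, PSMD, PSME, PSMF or PSMG followed by a number. The rule found 40 genes among the 6765 with a probe set of a single symbol. Where several of the 46 matching probe sets named the same gene, the one with the highest mean level over the 8 arrays was used. All 40 genes lay above the filter on dim probe sets, the lowest of them with a mean log2 level of 6.87 against a filter level of 5.27, and were among the 5406 genes tested. By complex they were 7 alpha subunits and 7 constitutive beta subunits of the core, 2 immunoproteasome beta subunits, 8 base and 7 lid subunits of the regulatory particle, 4 activators, 1 inhibitor, 2 chaperones of base assembly and 2 of core assembly. A further 8 genes of these classes, PSMA8, PSMB9, PSMB11, PSMC4, PSMD7, PSMD9, PSMG2 and PSMG4, were not analysed here.

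The core of the proteasome is a barrel of stacked rings, in which the outer alpha rings gate the entry and the inner beta rings hold the catalytic sites. The regulatory particle sits on the end of the barrel: its base unfolds substrates with ATPases, and its lid removes ubiquitin. In skeletal muscle this pathway degrades much of the contractile protein lost during wasting, and glucocorticoids are known to act on it.

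Expression was measured with an Affymetrix porcine array in the biceps femoris, a thigh muscle, of female domestic piglets in a model of acute quadriplegic myopathy, a muscle weakness acquired during intensive care. The control group had 4 arrays and the corticosteroid group 4. Piglets of both groups were anaesthetised with isoflurane, morphine and ketamine, mechanically ventilated for 5 days, and given crystalloid fluid, glucose, streptomycin and benzylpenicillin. The corticosteroid group also received bolus doses of hydrocortisone. The protocol text of the control samples adds an infusion of E. coli endotoxin that their source label leaves out, and the text of the corticosteroid samples mentions none. Endotoxin and hydrocortisone therefore cannot be told apart in the comparison if the text is right. The series text also describes the neuromuscular blocker pancuronium bromide without saying which animals had it. The texts give 4 piglets with a mean weight of 25.5 kg for the controls and 8 with a mean of 26.4 kg for the treated samples. Separate animals per array are not stated, so the p-values cover only the spread among these arrays, which may be technical, and the number of arrays limits the precision.

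The array medians ran from a log2 level of 5.87 to 5.97. Of 14 muscle fibre markers 12 had a probe set, and creatine kinase CKM stood between 13.86 and 14.07 on all arrays, so the tissue label had its defining marker. The corticosteroid columns were in another row order than the control columns and were re-assigned by probe ID, which moved 16 of the 40 genes and left 24 in place. The 3 probe sets of PSMC2, an ATPase of the base, show the effect on a gene. The moved probe set of PSMC2 had a control mean of 10.73 and a corticosteroid mean of 4.23 as deposited, and of 10.52 after re-assignment. In the 2 unmoved probe sets of the same gene the group means were 12.27 and 12.34, and 9.83 and 9.63. All values below are after re-assignment. Control array 2 stood apart in myeloid and fibroblast markers, as described with the immunoproteasome, and corticosteroid arrays 1 and 4 stood apart in proteasome genes, as described next. Control array 2 and corticosteroid array 4 were often extreme in other genes too. Of the 5406 genes tested, control array 2 was the highest of the 8 arrays for 1141 and the lowest for 1274. Corticosteroid array 4 was the highest for 1150 and the lowest for 1008, and corticosteroid array 1 for 515 and 340.

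No proteasome gene passed the test of corticosteroid against control. At a Benjamini-Hochberg adjusted p under 0.05, limma called 0 of 40 genes, where it called 0 of all 14361 probe sets (0.0%). At an unadjusted p under 0.05 it called 0 of the 40 lower and 0 higher, where 3.9% of the 5406 genes tested were called lower and 5.27% higher. In all 40 genes the groups overlapped, while among the genes tested 2.02% lay wholly lower and 3.4% wholly higher with corticosteroid. The mean was lower with corticosteroid in 25 of 40 genes (62.5%), against 46.0% of all genes tested. The median difference was -0.18 on the log2 scale over the 40 genes and 0.03 over all genes tested. The 24 genes in unmoved rows held 13 with a lower mean, and the 16 in moved rows held 12.

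**Figure D1:**
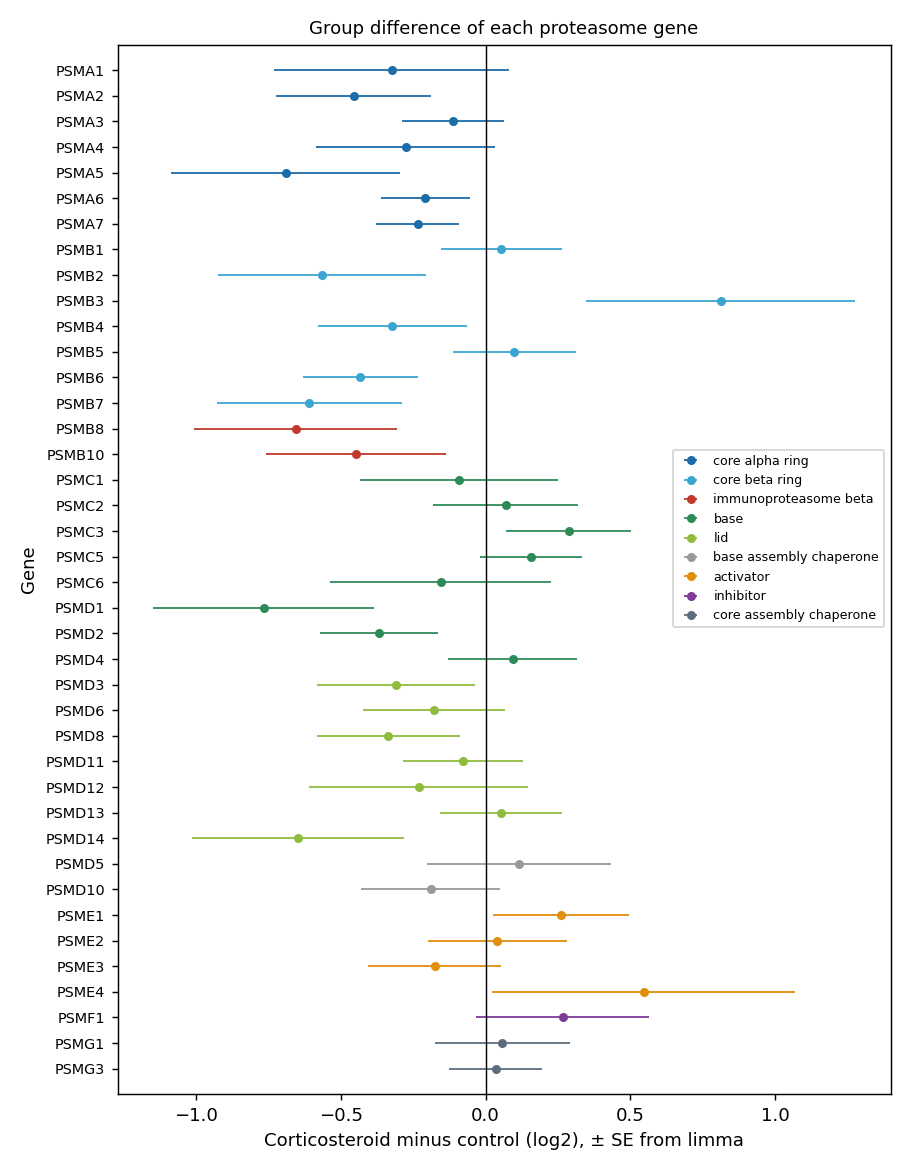
Difference between the group means of each of the 40 proteasome genes (x axis, corticosteroid minus control, log2; y axis, genes coloured by class), with bars of 1 standard error from limma and 4 arrays a group. All 7 core alpha genes lie left of 0, PSMD1 is the farthest left at -0.77 and PSMB3 the farthest right at 0.81.

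The treated arrays differed from each other in an order that most proteasome genes shared. Among the 4 corticosteroid arrays, array 1 was the highest for 34 of 40 genes (85.0%), against 28.4% of all genes tested. Array 4 was the lowest for 30 of 40 (75.0%), against 29.3%. Both held together for 28 of 40 genes (70.0%), against 13.2%. The order was found by looking at the values, so it is a description of these arrays.

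All 29 constitutive core, base and lid genes were highest on corticosteroid array 1 among the treated arrays, and 25 of them (86.2%) were also lowest on array 4. The exceptions were PSMA7, PSMC3 and PSMC5, lowest on array 2, and PSMB6, lowest on array 3. The pattern held in 18 of the 24 genes in unmoved rows and in 10 of the 16 in moved rows. It did not hold for the immunoproteasome genes PSMB8 and PSMB10, for the base chaperones PSMD5 and PSMD10, for the activators PSME1, PSME2 and PSME4, or for the core chaperone PSMG3.

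The gap between corticosteroid arrays 1 and 4 had a median of 0.76 on the log2 scale over the 40 genes and of 0.02 over all genes tested. It was 1 or more, a doubling on the linear scale, for 15 of 40 genes (37.5%), against 7.49% of all genes tested. By class, the median gap was 1.41 for the core alpha subunits, 1.39 for the constitutive beta subunits, 1.01 for the base and 0.99 for the lid. It was 0.11 for the activators and -0.17 for the immunoproteasome subunits. The difference between classes was not tested, and single genes departed from their class, such as the activator PSME3 with a gap of 0.71 and the base gene PSMC5 with 0.21.

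**Figure D2:**
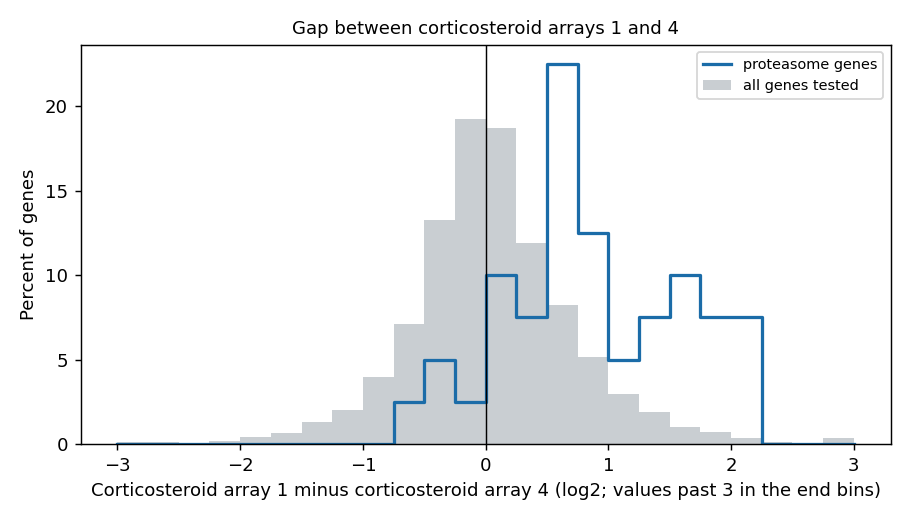
Share of genes (y axis, percent) by the log2 level on corticosteroid array 1 minus that on corticosteroid array 4 (x axis, bins of equal width), for the 40 proteasome genes (blue line) and all 5406 genes tested (grey). The grey bars centre near 0, with a median of 0.02, while 36 of 40 proteasome genes lie above 0, with a median of 0.76.

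The size of the group difference depended on single arrays. Corticosteroid arrays 1 and 4 had been picked as the highest and lowest treated arrays of these genes. Leaving either out was thus bound to move the difference, so the values below only describe the arrays. Averaged over the 40 genes, the difference was -0.15, and it was -0.02 without corticosteroid array 4, when 21 of 40 genes had the lower mean. Without corticosteroid array 1 it was -0.31, 31 genes had the lower mean and 12 of 40 reached an unadjusted p under 0.05 in limma, all lower, where 11.9% of all genes tested did so in either direction. The smallest adjusted p over those 12 was 0.310. The 12 were PSMA2, PSMA5, PSMA6, PSMA7, PSMB2, PSMB4, PSMB6, PSMB7, PSMD1, PSMD2, PSMD8 and PSMD14. Without any other single array the mean difference ran from -0.21 to -0.09. It was -0.21 without control array 2, when 30 of 40 genes had the lower mean, and -0.09 without corticosteroid array 2.

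**Figure D3:**
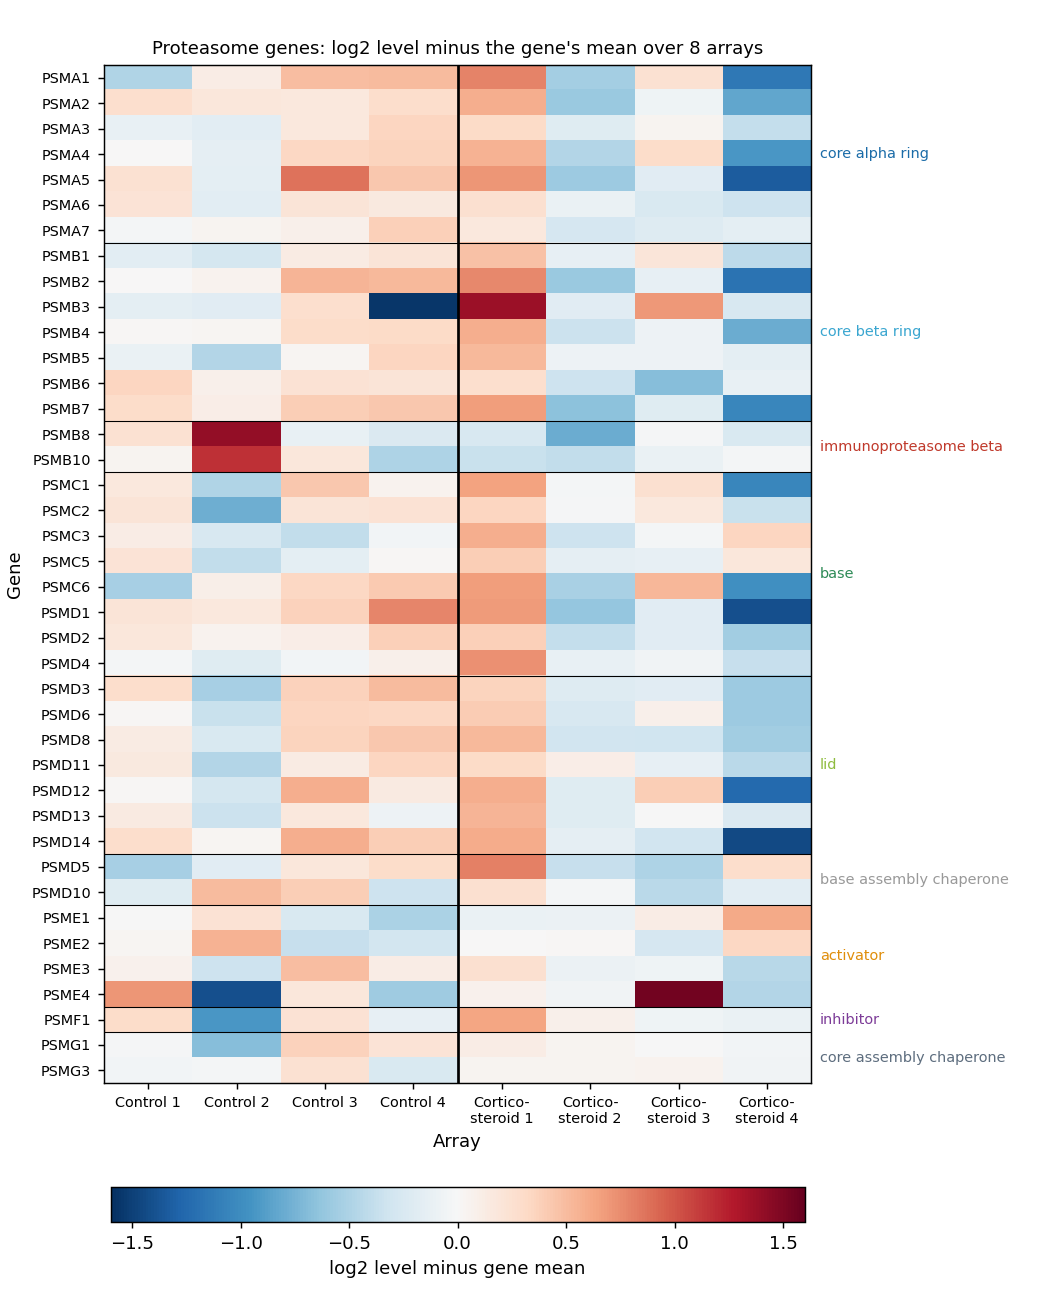
Log2 level of each proteasome gene minus its mean over the 8 arrays (colour; red above and blue below the gene's mean), with genes as lines grouped by class and arrays as columns, control left and corticosteroid right of the black line. Corticosteroid array 1 is red and corticosteroid array 4 blue over most core, base and lid genes, and PSMB8 and PSMB10 are red on control array 2.

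The 7 core alpha subunits, which form the gated outer rings, all had a lower mean with corticosteroid, with a mean difference of -0.33 and single differences from -0.69 to -0.11. After subtraction of each gene's mean, the class stood at 0.02, -0.04, 0.33 and 0.35 on control arrays 1 to 4 and at 0.48, -0.39, -0.02 and -0.73 on corticosteroid arrays 1 to 4. The treated arrays thus lay both above and below all controls. The standard deviation of the class mean was 0.21 over the controls and 0.52 over the treated arrays.

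PSMA5, an alpha subunit, had the largest difference and the smallest p of the class. Its log2 level was 11.40, 11.01, 12.03 and 11.60 on control arrays 1 to 4 and 11.87, 10.59, 10.99 and 9.83 on corticosteroid arrays 1 to 4. Treated array 1 lay within the control range and the other treated arrays below it. The group means were 11.51 ± 0.43 (SD, n = 4) and 10.82 ± 0.85 (SD, n = 4), a difference of -0.69 (SE 0.40, 95% interval -1.58 to 0.20, limma adjusted p = 0.578). Without corticosteroid array 1 the difference was -1.04, and without array 4 it was -0.36.

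PSMA2, another alpha subunit, was almost constant over the controls, at 12.42, 12.32, 12.32 and 12.44. On corticosteroid arrays 1 to 4 it stood at 12.73, 11.56, 12.08 and 11.32. One treated array lay above all controls and the rest below all of them. PSMA1 had the same order on the treated arrays, at 11.58, 10.24, 11.03 and 9.65, against control levels of 10.31, 10.91, 11.28 and 11.30. PSMA4 also did, at 12.09, 11.05, 11.81 and 10.60, against controls of 11.53, 11.38, 11.85 and 11.89. In PSMA1 and PSMA4 treated array 1 was the highest of all 8 arrays and treated array 4 the lowest.

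The remaining alpha subunits varied less. PSMA3 differed by -0.11 (95% interval -0.50 to 0.28), PSMA6 by -0.21 (-0.55 to 0.14) and PSMA7 by -0.23 (-0.56 to 0.09). PSMA7 stood at 12.09, 12.17, 12.21 and 12.50 on the controls and at 12.30, 11.85, 11.92 and 11.97 on the treated arrays. Treated array 1 was thus the only treated array inside the control range of PSMA7.

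**Figure D4:**
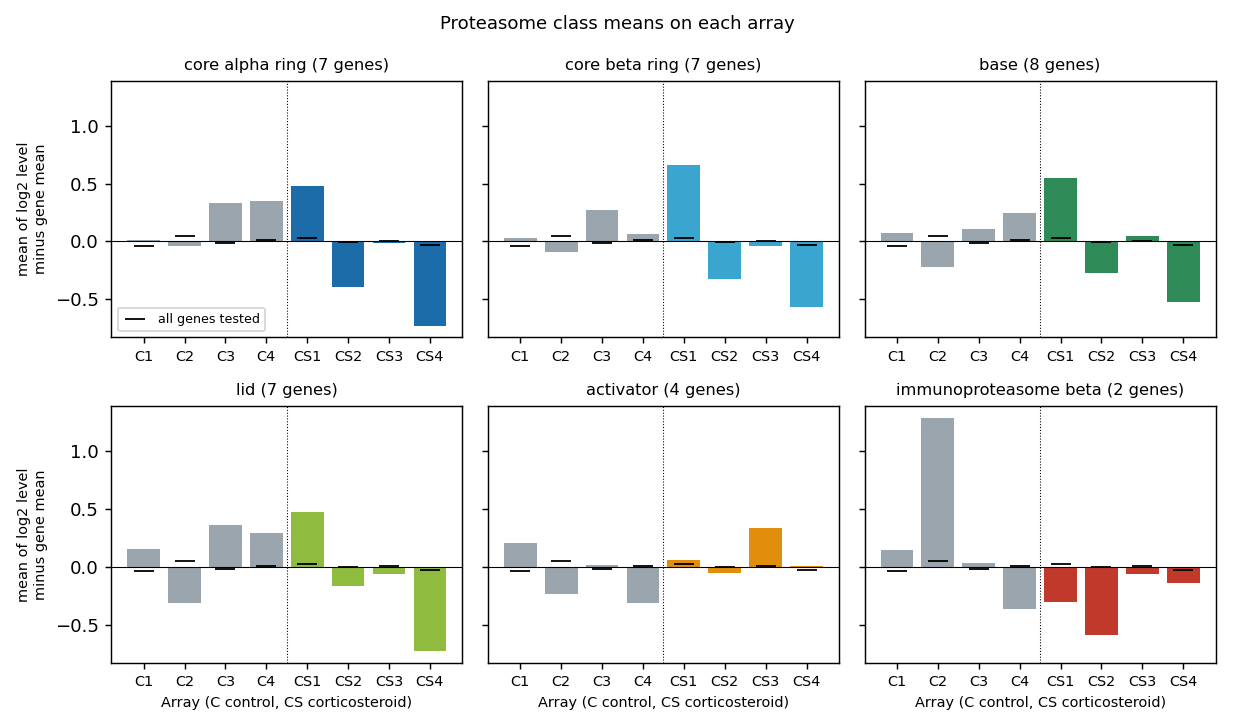
Mean over the genes of a class of log2 level minus the gene's mean over 8 arrays (y axis), on each array (x axis; C control, grey bars; CS corticosteroid, coloured bars), with short black lines for all genes tested. The core, base and lid classes are highest on CS1 and lowest on CS4, the activators are highest on CS3, and the immunoproteasome class is highest on C2 at 1.29.

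The 7 constitutive beta subunits divided by gene: 4 had a lower and 3 a higher mean with corticosteroid, with a class mean difference of -0.14 and a median of -0.32. The catalytic subunits of this ring are PSMB5, PSMB6 and PSMB7, which carry the chymotrypsin-like, caspase-like and trypsin-like activities. PSMB6 and PSMB7 had a lower mean with corticosteroid, and PSMB5 did not.

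PSMB6 had the smallest p of all 40 genes. It stood at 11.63, 11.36, 11.51 and 11.49 on control arrays 1 to 4 and at 11.55, 10.95, 10.61 and 11.16 on corticosteroid arrays 1 to 4. Treated array 1 lay within the narrow control range and the other treated arrays below it. The means were 11.50 ± 0.11 (SD, n = 4) and 11.07 ± 0.39 (SD, n = 4), a difference of -0.43 (SE 0.20, 95% interval -0.88 to 0.01, unadjusted p = 0.0553, adjusted p = 0.528, limma). Without single arrays the difference ran from -0.59, without corticosteroid array 1, to -0.28, without corticosteroid array 3.

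PSMB7 stood at 11.55, 11.37, 11.65 and 11.69 on the controls and at 11.93, 10.61, 11.07 and 10.22 on the treated arrays. Treated array 1 was above all controls and the other treated arrays below all of them. The difference was -0.61 (SE 0.32, 95% interval -1.32 to 0.11, limma adjusted p = 0.559). It was -0.93 without corticosteroid array 1 and -0.36 without array 4.

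PSMB5 stood at 11.46, 11.10, 11.60 and 11.91 on the controls and at 12.08, 11.49, 11.49 and 11.41 on the treated arrays. Treated array 1 was high and the other treated arrays lay close together inside the control range. The difference was 0.10 (SE 0.21, 95% interval -0.38 to 0.57, limma adjusted p = 0.887). Its sign turned to -0.06 without corticosteroid array 1 and to -0.04 without control array 2.

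PSMB3, a structural beta subunit, had the largest difference of the 40 genes in the higher direction. Its level was 8.73, 8.71, 9.16 and 7.33 on the controls and 10.26, 8.71, 9.58 and 8.63 on the treated arrays. Control array 4 was low, and treated arrays 1 and 3 were above all controls. The means were 8.48 ± 0.79 (SD, n = 4) and 9.29 ± 0.78 (SD, n = 4), a difference of 0.81 (SE 0.46, 95% interval -0.23 to 1.85, limma adjusted p = 0.578). Without control array 4 the difference was 0.43.

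The other structural beta subunits were PSMB1, PSMB2 and PSMB4. PSMB2 ran from 11.92 to 12.46 on the controls and stood at 12.68, 11.32, 11.78 and 10.73 on the treated arrays, a difference of -0.56 (95% interval -1.37 to 0.25). PSMB4 stood at 12.88, 11.95, 12.21 and 11.49 on the treated arrays and differed by -0.32 (95% interval -0.90 to 0.25). PSMB2 and PSMB4 were above all controls on treated array 1 and below all of them on the others. PSMB1 differed by 0.05 (95% interval -0.41 to 0.52).

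In the immunoproteasome, PSMB8 takes the place of PSMB5 and PSMB10 that of PSMB7. These subunits are known to be induced by interferon gamma and to be abundant in leukocytes. Both had a lower mean with corticosteroid, with a class mean difference of -0.55, and in both the highest of all 8 arrays was control array 2. That array was also the highest for 1141 of the 5406 genes tested. In whole muscle, fewer cells of a type and less RNA per cell cannot be told apart.

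PSMB8 stood at 7.50, 8.67, 7.14 and 7.03 on control arrays 1 to 4 and at 7.01, 6.47, 7.24 and 7.01 on corticosteroid arrays 1 to 4. Control array 2 was far above the rest, and the other controls overlapped the treated arrays. The means were 7.58 ± 0.75 (SD, n = 4) and 6.93 ± 0.33 (SD, n = 4), a difference of -0.65 (SE 0.35, 95% interval -1.44 to 0.13, limma adjusted p = 0.562). Without control array 2 the difference was -0.29, and without control array 4 it was -0.84 (unadjusted p = 0.0491, adjusted p = 0.510, limma).

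PSMB10 stood at 6.92, 8.04, 7.05 and 6.38 on the controls and at 6.51, 6.48, 6.77 and 6.84 on the treated arrays. The controls held both its highest and its lowest array. The difference was -0.45 (SE 0.31, 95% interval -1.14 to 0.25, limma adjusted p = 0.632). It was -0.13 without control array 2 and -0.69 without control array 4 (unadjusted p = 0.0398, adjusted p = 0.509, limma). Without control array 4, 10.1% of all genes tested had an unadjusted p under 0.05 in either direction.

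Myeloid and fibroblast markers moved with these values on control array 2. Of all 5406 genes tested, 1141 were highest of the 8 arrays on control array 2. Of 16 listed leukocyte markers 11 had a probe set, and 7 of the 11 were highest on that array. Those were PTPRC and the myeloid genes CD14, CD163, ITGAM, AIF1, TYROBP and FCER1G. The T-cell markers were highest elsewhere, CD3D, CD2 and CD8A on control array 1 and CD3E on control array 3. The summed linear level of the 11 ran from 521 to 3718 over the controls, with the top value on control array 2, and from 497 to 830 over the treated arrays. The myeloid gene AIF1 stood at 6.52, 9.62, 6.67 and 6.22 on the controls and between 6.03 and 6.65 on the treated arrays. TYROBP, an adaptor of myeloid and natural killer cells, stood at 7.06, 10.17, 6.92 and 5.81 on the controls and between 6.36 and 7.01 on the treated arrays. On both genes control array 2 lay more than 2 log2 units above every other array. No marker was listed at 0, and PTPRC, the pan-leukocyte marker, was below the filter on dim probe sets. The 6 markers tested all had a lower mean with corticosteroid, against 46.0% of all genes tested. In limma 0 of the 6 reached an unadjusted p under 0.05. The mean difference of the 6 was -0.60, or -0.02 without control array 2. Of 4 fibroblast markers with a probe set, 3 were highest on control array 2, and their mean after subtraction of each gene's mean was 0.75 there and between -0.35 and 0.31 on the other arrays. The collagen gene COL1A2 stood at 7.63, 10.13, 7.66 and 8.44 on the controls. The part of the leukocyte and fibroblast markers in the PSMB8 and PSMB10 values was not tested.

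**Figure D5:**
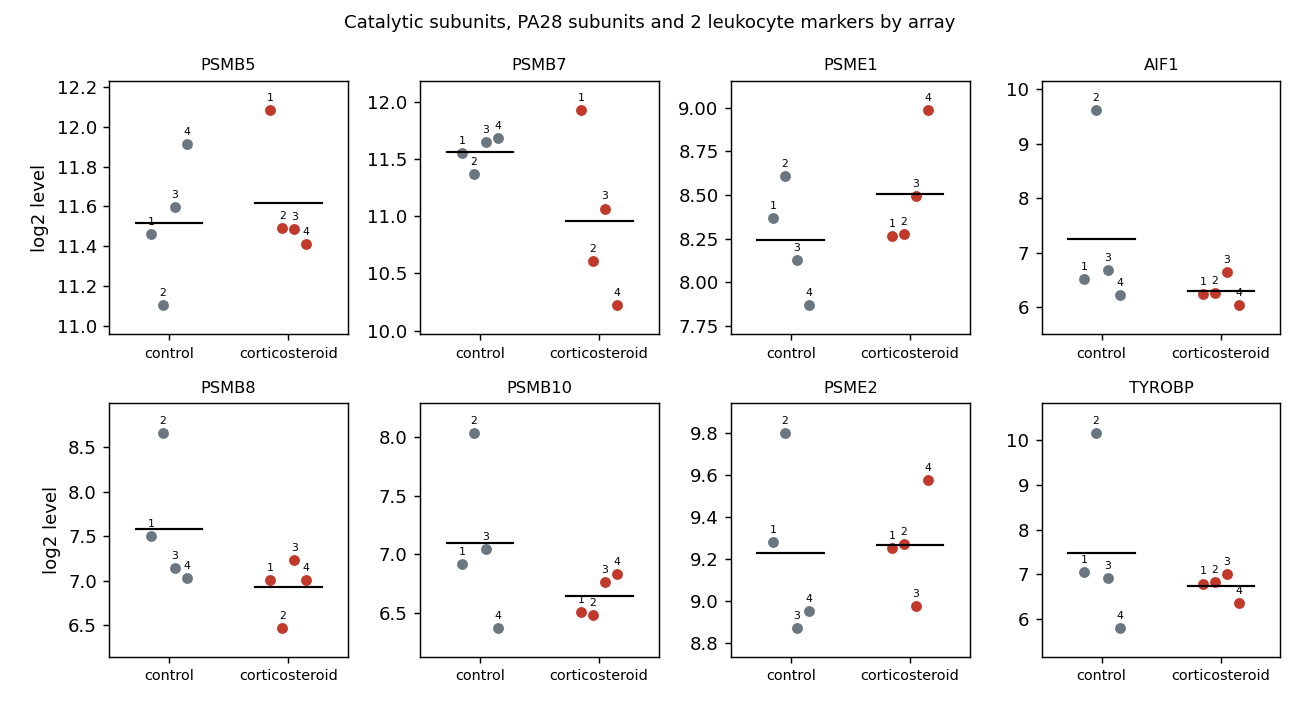
Log2 level (y axis, its own range in each panel) on each array (points, numbered by array) in the control and corticosteroid groups (x axis), with a line at the group mean, for PSMB5 and PSMB7 of the constitutive core, their immunoproteasome counterparts PSMB8 and PSMB10, the activator subunits PSME1 and PSME2, and the leukocyte markers AIF1 and TYROBP. Control array 2 is the top point for PSMB8, PSMB10, PSME2, AIF1 and TYROBP, and corticosteroid array 1 is the top point for PSMB5 and PSMB7.

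Genes of interferon signalling and antigen processing were read beside the immunoproteasome. Of 16 listed, 9 were tested, and 8 had a lower mean under corticosteroid, against 46.0% of all genes tested. In limma 1 of the 9 was lower at an unadjusted p under 0.05, where 3.9% of all genes tested were. That gene was B2M, the light chain of MHC class I, at 13.80, 13.93, 13.87 and 13.60 on the controls and 13.52, 13.42, 13.57 and 13.57 on the treated arrays. B2M has 9 probe sets, and these values are from the one of highest mean level. In that probe set the groups did not overlap, where 2.02% of all genes tested lay wholly lower with corticosteroid. Its difference was -0.28 (SE 0.09, unadjusted p = 0.0147, adjusted p = 0.479, limma). The other probe sets of B2M are not given here. TAP1, the peptide transporter whose gene lies next to PSMB8 in the Sscrofa11.1 gene order, differed by -0.26. IRF1, an interferon-induced transcription factor, differed by -0.30, and the kinase JAK2 by -0.31. JAK2 was highest on control array 2, and without that array its difference was -0.11. TAP1 has 3 probe sets and JAK2 has 2, and only the one of highest mean level is given for each.

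The 8 base subunits included 4 with a lower and 4 with a higher mean under corticosteroid. Their mean difference was -0.10 and their median -0.01. The base consists of the PSMC ATPases, the scaffold proteins PSMD1 and PSMD2, which bind substrates and shuttling factors, and the ubiquitin receptor PSMD4. Both scaffold genes had a lower mean, while PSMC2, PSMC3, PSMC5 and PSMD4 had a higher one.

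PSMD1 had the largest difference of the 40 genes in the lower direction. It stood at 11.43, 11.39, 11.60 and 12.00 on control arrays 1 to 4 and at 11.90, 10.60, 11.04 and 9.81 on corticosteroid arrays 1 to 4. Treated array 1 lay within the control range and the other treated arrays below it. The means were 11.60 ± 0.28 (SD, n = 4) and 10.84 ± 0.87 (SD, n = 4), a difference of -0.77 (SE 0.38, 95% interval -1.62 to 0.09, unadjusted p = 0.0742, adjusted p = 0.544, limma). It was -1.12 without corticosteroid array 1 and -0.42 without array 4.

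A second probe set of PSMD1 gave 11.29, 11.06, 11.47 and 11.47 on the controls and 11.79, 10.47, 10.81 and 9.76 on the treated arrays. It had the same order over the treated arrays, and its difference was -0.62 (SE 0.36). The other scaffold gene, PSMD2, stood at 11.82, 11.69, 11.75 and 12.02 on the controls and at 12.02, 11.25, 11.45 and 11.08 on the treated arrays. Treated array 1 was again level with the controls and the rest were below them, for a difference of -0.37 (SE 0.20, 95% interval -0.82 to 0.09).

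Among the ATPases, PSMC3 stood at 11.64, 11.26, 11.13 and 11.47 on the controls and at 12.10, 11.18, 11.49 and 11.87 on the treated arrays. Here treated array 4 was the second highest of all 8, unlike in most base genes. The difference was 0.29 (95% interval -0.19 to 0.77). PSMC5 differed by 0.16 (95% interval -0.24 to 0.55), also with treated array 4 second to array 1 among the treated arrays.

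PSMC1 and PSMC6 had the wide treated spread of the core genes. PSMC1 stood at 12.42, 11.74, 12.04 and 10.73 on the treated arrays and PSMC6 at 11.76, 10.57, 11.62 and 10.11, with differences of -0.09 and -0.15. In both genes treated array 1 was above and treated array 4 below all controls. PSMC2 differed by 0.07 in the probe set of highest level and by -0.21 and -0.20 in its other probe sets. PSMD4 differed by 0.09 (95% interval -0.41 to 0.59).

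The 7 lid subunits included 6 with a lower mean under corticosteroid, with a mean difference of -0.25 and a median of -0.23. All 7 were highest on array 1 and lowest on array 4 among the treated arrays, and all 7 were lowest on array 2 among the controls. Control array 2 was also the lowest control for 6 of the 8 base genes. It was so for 25 of all 40 proteasome genes and for 1825 of the 5406 genes tested. The class mean, after subtraction of each gene's mean, stood at 0.15, -0.31, 0.36 and 0.30 on the controls and at 0.47, -0.17, -0.07 and -0.73 on the treated arrays.

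PSMD14, the metalloprotease that cuts ubiquitin from substrates, had the largest difference and the smallest p of the lid. It stood at 11.65, 11.40, 11.95 and 11.77 on the controls and at 11.96, 11.23, 11.07 and 9.92 on the treated arrays. Treated array 1 was level with the highest control, and the other treated arrays were below all controls. The means were 11.69 ± 0.23 (SD, n = 4) and 11.05 ± 0.84 (SD, n = 4), a difference of -0.65 (SE 0.37, 95% interval -1.47 to 0.17, limma adjusted p = 0.572). It was -0.95 without corticosteroid array 1 and -0.27 without array 4.

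The structural lid subunits had smaller differences. PSMD8 differed by -0.34 (95% interval -0.89 to 0.22), PSMD3 by -0.31 (-0.92 to 0.30), PSMD12 by -0.23 (-1.08 to 0.61) and PSMD6 by -0.18 (-0.72 to 0.37). PSMD3 was low on control array 2, at 10.06 against 10.88 to 11.10 on the other controls, and without that array its difference was -0.54, at an unadjusted p under 0.05 in limma, as for 7.95% of all genes tested without it. PSMD11, which clamps the lid to the core, differed by -0.08, and its other probe sets by -0.13 and 0.28. PSMD13 was the lid gene with a higher mean, by 0.05 (95% interval -0.42 to 0.53).

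The 4 activators, which open the core without ubiquitin, had a mean difference of 0.17, with 1 lower and 3 higher means. The class was spread less over the treated arrays than over the controls, with standard deviations of the class mean of 0.17 and 0.24. PSME1 and PSME2 form the PA28 cap, known to be induced by interferon gamma as the immunoproteasome is. PSME3 forms the nuclear cap of the same family, and PSME4 is the large single-chain activator.

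PSME1 stood at 8.37, 8.61, 8.13 and 7.87 on the controls and at 8.26, 8.28, 8.49 and 8.99 on the treated arrays. Treated array 4, the lowest for most core genes, was here the highest of all 8. The difference was 0.26 (SE 0.23, 95% interval -0.27 to 0.79, limma adjusted p = 0.700), and it was 0.10 without corticosteroid array 4 and 0.14 without control array 4. PSME2 stood at 9.28, 9.80, 8.87 and 8.95 on the controls and at 9.25, 9.27, 8.98 and 9.57 on the treated arrays. Control array 2 was its highest and treated array 4 its next highest. The difference of PSME2 was 0.04 (SE 0.24, 95% interval -0.50 to 0.58, limma adjusted p = 0.965), and its sign turned when single arrays were left out.

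PSME4 stood at 11.25, 9.14, 10.73 and 9.98 on the controls and at 10.61, 10.50, 12.09 and 10.07 on the treated arrays. Treated array 3 was high and control array 2 low, and the groups overlapped widely. The difference was 0.55 (SE 0.52, 95% interval -0.63 to 1.72, limma adjusted p = 0.716), with the largest standard error of the 40 genes. It was 0.17 without control array 2 and 0.12 without corticosteroid array 3. PSME3 stood at 9.13, 8.73, 9.54 and 9.18 on the controls and at 9.32, 8.96, 8.99 and 8.61 on the treated arrays, a difference of -0.18 (SE 0.23, limma adjusted p = 0.800). It was the activator that followed the core genes in order over the treated arrays.

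PSMF1 encodes PI31, known as an inhibitor of the core in vitro. It stood at 9.30, 8.07, 9.23 and 8.86 on the controls and at 9.63, 9.08, 8.94 and 8.89 on the treated arrays. Control array 2 was low and the remaining arrays overlapped. The difference was 0.27 (SE 0.30, 95% interval -0.40 to 0.94, limma adjusted p = 0.761), and it was 0.00 without control array 2.

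The assembly chaperones had differences near 0. PSMG1, which helps to build the alpha ring, stood at 9.81, 9.14, 10.20 and 10.05 on the controls and at 9.95, 9.88, 9.82 and 9.79 on the treated arrays. The treated arrays were within 0.16 log2 units of each other, unlike the ring subunits. The difference was 0.06 (SE 0.23, 95% interval -0.46 to 0.58, limma adjusted p = 0.945). PSMG3, of the same assembly pathway, differed by 0.03 (95% interval -0.32 to 0.39), also with the treated arrays close together, between 7.43 and 7.54.

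Both chaperones of the base had their lowest treated value on array 3. PSMD10, also called gankyrin, stood at 7.09, 7.78, 7.67 and 6.95 on the controls and at 7.53, 7.25, 6.84 and 7.11 on the treated arrays, a difference of -0.19 (SE 0.24, limma adjusted p = 0.795). PSMD5 stood at 8.46, 8.80, 9.17 and 9.28 on the controls and at 9.80, 8.62, 8.49 and 9.27 on the treated arrays, a difference of 0.11. In both genes the groups overlapped.

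The spread over the arrays was also counted by gene. The standard deviation was larger over the treated arrays than over the controls for 25 of 40 genes (62.5%), against 43.8% of all genes tested, and for 23 of the 29 constitutive core, base and lid genes (79.3%). Averaged by class, the core, base and lid genes together differed by -0.20, with 21 of 29 lower, and the activators, inhibitor and chaperones together by 0.11, with 2 of 9 lower. These are descriptions of classes, and the difference between them was not tested.

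Genes that work with the proteasome but fall outside its naming scheme were read beside it. Of 22 listed, 6 had a probe set and were tested. A lower mean was found in 4, against 46.0% of all genes tested, and 0 reached an unadjusted p under 0.05 in limma. SEM1, a small lid subunit, differed by -0.19, and the proteasome-bound thioredoxin TXNL1 by -0.28. VCP, the ATPase that delivers ubiquitinated proteins, stood at 11.73, 10.97, 11.09 and 10.42 on the treated arrays and differed by -0.31 (SE 0.27, limma adjusted p = 0.687). Among the treated arrays VCP and TXNL1 were again highest on array 1 and lowest on array 4, but the other partners were not. PAAF1 differed by 0.24 and was highest of all 8 on treated array 4, at 8.43. SEM1 was lowest on treated array 3, and RPS27A was lowest of the treated arrays on array 1. The polyubiquitin gene UBB differed by 0.20 (SE 0.11, limma adjusted p = 0.572), with treated arrays between 13.46 and 13.73. PAAF1 and TXNL1 have 3 probe sets each, and VCP and RPS27A have 2 each. Only the probe set of highest mean level is given for each.

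The ubiquitin ligases of muscle atrophy and their FOXO regulators had a higher mean with corticosteroid in 4 of 4 genes tested, with 0 at an unadjusted p under 0.05 in limma. Of all 5406 genes tested, 2920 had a higher mean. FBXO32, also called atrogin-1, stood at 12.64, 11.68, 10.76 and 12.87 on the controls and at 12.90, 12.46, 13.19 and 10.37 on the treated arrays. Treated array 4 was the lowest of all 8, as for the core genes, and array 3 the highest. The difference was 0.24 (SE 0.64), and it was 0.86 without corticosteroid array 4 and -0.16 without control array 3. Over the 4 genes the mean difference was 0.26, or 0.59 without corticosteroid array 4, and it was 0.09 without corticosteroid array 3, when 2 of the 4 had a lower mean. FOXO1 and FOXO3, the transcription factors upstream, were also lowest of all 8 on treated array 4, at 8.60 and 6.15, and differed by 0.08 and 0.31. Of all genes tested, 18.6% were lowest of all 8 on that array. FBXO21 differed by 0.40 (SE 0.22). FBXO21 has 5 probe sets, and FBXO32, FOXO1 and FOXO3 have 2 each. Only the probe set of highest mean level is given for each. TRIM63, NFE2L1 and POMP were not analysed here.

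Markers of other cell types were set beside the treated-array order. The summed linear level of the muscle fibre markers ran from 112684 to 131154 over the controls and from 118043 to 128143 over the treated arrays. Within that list 6 of 12 genes had a lower and 6 a higher mean with corticosteroid. In limma 4 were lower and 2 higher at an unadjusted p under 0.05, and 0 passed an adjusted p under 0.05. Of all genes tested, 3.9% were called lower and 5.27% higher at that unadjusted level. In 6 of 12 the groups did not overlap, where 2.02% of all genes tested lay wholly lower and 3.4% wholly higher. The slow-fibre genes TNNT1 and MYH7 differed by -1.78 and -1.17, and the fast-fibre gene TNNT3 by 0.66. The fast-fibre genes MYL1 and MYLPF differed by only 0.01 and 0.13, with overlapping groups. Endothelial markers had 2 of 4 tested genes lower, fibroblast markers 2 of 4, adipocyte markers 1 of 3 and erythroid markers 2 of 2, against 46.0% of all genes tested. Of the 2 erythroid genes 1 was lower at an unadjusted p under 0.05 in limma, and in 1 the groups did not overlap. The endothelial, fibroblast and adipocyte lists had 0 of either kind. The mean difference of the erythroid genes was -0.63, or -0.26 without control array 3. On treated arrays 1 and 4 the class mean, after subtraction of each gene's mean, was -0.16 and -0.29 for muscle fibre markers, -0.09 and -0.63 for leukocyte markers, 0.34 and -1.04 for adipocyte markers, -0.13 and -0.70 for erythroid markers, 0.07 and 0.03 for endothelial markers and -0.18 and 0.11 for fibroblast markers. The part of these cells in the order of the proteasome genes was not tested.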

How the data were processed

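The deposited values are log2 levels per probe set, 1 column per array. The submitters' processing notes name MAS5; scaling between arrays and the genome build are not given in the sources used here, so no coordinates are given. The table has 23999 probe sets, of which 64 reporters were left out; the platform table gave 1 symbol for 10069, several for 198 and none for 13732. All 40 proteasome genes were found by gene ID in the RefSeq gene table of pig.

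The corticosteroid values were re-assigned to the probe IDs sorted with full stops ignored, which moved 9389 probe sets (39.1%). That order was found from the values: over the moved probe sets the correlation of the group means across probe sets was 0.0997 as deposited and 0.989 after it, against 0.989 over the unmoved ones.

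The test was limma (version 3.58.1, run under R 4.3.3; lmFit, then eBayes with a trend on level) over the 14361 probe sets with a mean level above the 40th percentile, with Benjamini-Hochberg adjustment at 0.05 over all of them; a gene was its probe set of highest mean. The fit was also run on simulated data with independent noise for each probe set. Genes that move together on an array were not simulated, so that run does not bear on them. Summaries used pandas 2.3.3 and numpy 2.4.6 under Python 3.11.15.

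The members and lists were chosen with earlier results of these data known. Values on every array were to be given for genes at an unadjusted p under 0.05, the smallest p and largest difference of each class, the catalytic counterparts, the activators and the inhibitor, with up to 4 genes of smallest p from each other list and 6 set genes, the cell type lists being given mostly as counts; PSMA1, PSMA2, PSMA4, PSMA7, PSMC3, PSMD2, PSMD5 and other genes given in part were added after their values were seen. Alternatives were a replicate block, quantile or median scaling, other filters, a constant of 16 added before log2, other variance models, array weights, averaged probe sets, the rows as deposited, the unmoved rows alone and leaving out arrays. Same-numbered arrays of the groups correlated in their deviations by -0.25, 0.11, 0.10 and 0.05, and arrays of unlike number by -0.31 to 0.27. The labels do not say that the numbers pair the arrays, and these few correlations cannot settle it. Promoter sequences were not used here.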

Additional observations from a re-analysis of the deposited data

Results flagged for a closer look

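A value that stood apart from the others of its group of 4 arrays, by Dixon's ratio of its gap to the group's range at the 95% level, was found for 10 of 162 groups examined, 4 of them among the 80 of proteasome genes, where chance gives about 1 in 20. The proteasome values were PSMA6 at 12.36 and PSMC2 at 11.53 on control array 2, both low, PSMB5 at 12.08 on corticosteroid array 1, high, and PSMG3 at 7.43 on corticosteroid array 4, low. Among the other genes, AIF1 was high on control array 2 at 9.62 and ALAS2, of haem synthesis in red cell precursors, high on control array 3 at 8.47. On corticosteroid array 4 FCER1G, a myeloid receptor chain, was high at 6.15, while FOXO3 at 6.15 and the haemoglobin gene HBB at 7.06 were low. IRF1 was low on corticosteroid array 2 at 6.22.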

How the results depend on the processing

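With 4 arrays a group, the standard errors of the proteasome genes ran from 0.14 to 0.52 log2 units. Group differences of that size, and larger ones, could not be told from 0. The 95% intervals of PSMB3 (0.81, SE 0.46) and PSMD1 (-0.77, SE 0.38) both included 0. Apart from leaving out single arrays, given below, the mean differences of the core alpha, core beta, immunoproteasome, base, lid and activator classes kept their direction under the alternatives run, except the activators with the rows as deposited and the base over its unmoved rows alone (0.04). That of the core assembly chaperones was -0.04 without control array 2 and corticosteroid array 4, against 0.05. Genes at an unadjusted p under 0.05 numbered 1 of 40 lower with array weights and 1 with quantile scaling (PSMB6 in both), where 8.62% and 9.25% of all genes tested were called in either direction, and 0 to 12 when single arrays were left out; 0 passed an adjusted p under 0.05 in any setting but the rows as deposited. With the replicate number as a block, 1 was called higher (PSMB3, at the same difference of 0.81, where 8.81% of all genes tested were called), with 1332 probe sets at an unadjusted p under 0.05 against 1363 without the block. That count was 2160 with no filter, 828 over the unmoved rows, 892 to 1783 without single arrays and 6101 with the rows as deposited; 5454 then passed an adjusted p under 0.05, against 0 to 1 without single arrays.

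With the rows as deposited, which pair values of different probe sets, 15 of the 40 genes were called lower, where 37.6% of all genes tested were called. Class mean differences were then -3.38 for the alpha, -1.40 for the beta, -1.41 for the immunoproteasome, -3.44 for the base, -1.87 for the lid and -1.10 for the activator genes; PSMB3 was at -5.10, PSMB10 at 0.10, PSME1 at -0.95 and PSMG1 at -3.19, and PSMA5 at -8.14, PSMB6 at -3.38, PSMB8 at -2.93, PSMD1 at -8.18 and PSME3 at -4.03. Without single arrays, class mean differences ran from -0.54 to -0.14 for the alpha, -0.38 to 0.03 for the beta, -0.76 to -0.21 for the immunoproteasome, -0.30 to 0.06 for the base, -0.44 to -0.05 for the lid and 0.08 to 0.26 for the activator genes. PSMB5 ran from -0.056 to 0.23, PSME2 from -0.077 to 0.23 and PSMG1 from -0.16 to 0.19; PSMG1 was also at -0.059 with array weights and at -0.14 without control array 2 and corticosteroid array 4. The cause of these changes was not tested.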
